A study of Homo sapiens with 6 samples.

Results

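The kinetochore and spindle checkpoint genes described here are a list of 44 genes, chosen by gene name with earlier results of these data known, whose products assemble on the centromere, join it to spindle microtubules and delay anaphase until every chromosome is attached. The array annotation gave a row to 43 of them among 23786 rows. The 44th, PMF1, a subunit of the MIS12 complex, had no row named for it and was not analysed here. The 43 were divided into 4 layers, with 17 genes in the constitutive centromere, 10 in the outer kinetochore, 8 in the checkpoint and 8 in spindle attachment.

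Values came from expression microarrays of HSC3 cells, an established human oral squamous carcinoma line. The DMSO group was 3 wells given 0.1% of the solvent, and the E7386 group was 3 wells given 0.1 μM of the compound dissolved in it. E7386 is a small molecule described as blocking the interaction of β-catenin with the coactivator CBP. Wells were treated 12 to 24 hours after seeding and harvested 48 to 64 hours later. No other agent or genetic change is named for either group, and the cells are a single line. Neither the solvent share in the E7386 wells nor each well's harvest time within that span is given in the sources used here, so both are unknown. The labels call the wells biological replicates but name no separate experiments, and p-values therefore reflect well-to-well spread alone, some of it possibly technical.

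The kinetochore is built on chromatin that carries CENP-A, a variant of histone H3. A constitutive network stays on this chromatin through the cell cycle and receives the outer kinetochore when cells enter mitosis. The outer part, made of the KNL1, MIS12 and NDC80 complexes, binds microtubules and also loads the checkpoint proteins, which block the anaphase-promoting complex while any kinetochore is unattached. Transcripts of many of these genes are known to be scarce in resting cells and to peak in G2 and mitosis. In bulk RNA, fewer cells in those phases and less RNA per cell cannot be told apart.

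Array medians ran from 3.74 to 3.79 on the log2 scale, and the median standard deviation (SD) of a row within groups was 0.15. Group means of 8.59 to 11.6 were read for the 4 measured of 6 squamous epithelial markers, which were keratin, cadherin and EPCAM genes. Of these, KRT5 and KRT14 were called lower with E7386, with differences of -0.79 and -1.64. CDH1 and EPCAM had differences above 0, of 0.26 and 0.19, and were not called. Group means ran from 1.18 to 3.63 for the 5 measured leukocyte markers, from 1.46 to 2.40 for 5 endothelial markers and from 1.19 to 5.30 for 6 fibroblast markers, and no marker of these lists was called. Summed log2 levels of the leukocyte list were 9.86 to 10.6 in DMSO wells and 9.09 to 10.4 in E7386 wells. Those of the endothelial list were 9.81 to 10.3 and 9.09 to 9.76, and those of the fibroblast list 15.1 to 16.7 and 14.9 to 15.7. The squamous sums were 39.5 to 39.9 and 37.7 to 37.9, and their part in the results was not tested.

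Most of the kinetochore genes were lower in E7386-treated cells. Of 43 measured members 33 were called lower, 1 was called higher and 9 were not called, at an adjusted p under 0.05 in limma with Benjamini-Hochberg adjustment over all rows. Over all 23786 rows 8.69% were called lower and 9.93% higher. The median difference of the members was -0.88 on the log2 scale, a 1.84-fold lower level, against -0.016 over all rows. A decrease of at least 2-fold was called for 18 members, against 1.29% of all rows. In 38 members all 3 E7386 values lay below all 3 DMSO values, which was so for 17.1% of all rows.

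**Figure D1:**
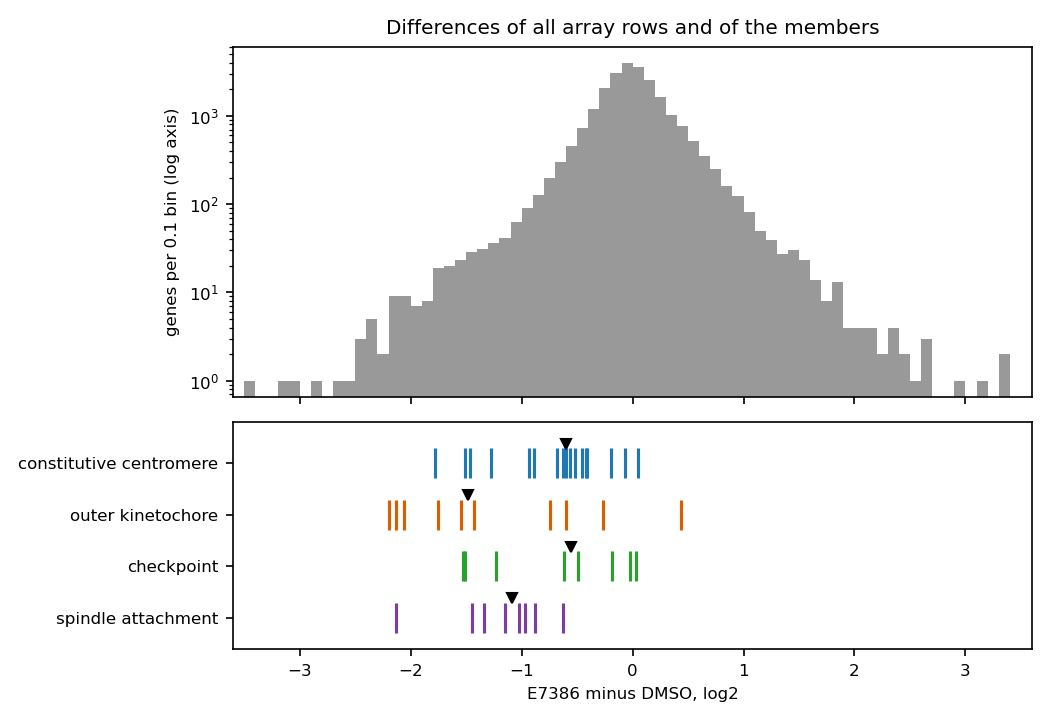
The upper panel counts the array rows in bins of 0.1 by their log2 difference, E7386 minus DMSO, on a log axis. In the lower panel each tick is a member, and the triangle above each layer is its median, which is -1.48 in the outer kinetochore, -1.09 in spindle attachment, -0.60 in the constitutive centromere and -0.56 in the checkpoint layer.

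The outer kinetochore and the spindle attachment genes held the larger decreases. In the outer kinetochore 8 of 10 were called lower and 1 higher, with a median of -1.48. All 8 spindle attachment genes were called lower, with a median of -1.09. In the constitutive centromere 12 of 17 were called lower, with a median of -0.60, and in the checkpoint layer 5 of 8, with a median of -0.56. Layers were not tested against each other, and their order depends on the assignment. With the 5 corona genes CENPE, CENPF, ZW10, ZWILCH and SPDL1, whose products sit on the outermost face of the kinetochore, all placed in the outer layer, the median was -1.08 there and -1.23 in the checkpoint layer. When a change beyond 1.5-fold was required by the test, 17 members were called lower and 0 higher, against 0.959% and 0.816% of all rows.

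The layer medians held the same positions in each treated well. Expressed as the level minus the DMSO mean of each gene, the median over all members was -0.89, -0.73 and -0.77 in E7386 wells 1, 2 and 3, and -0.033, 0.065 and -0.043 in DMSO wells 1, 2 and 3. The members also moved together within groups. DMSO well 2 held the highest DMSO value for 24 of 43 members, against 32.7% of all rows. E7386 well 1 held the lowest E7386 value for 30 of 43, against 34.0%, and E7386 well 2 the highest for 20 of 43, against 30.5%. The part of this shared movement in the differences was not tested. The median of the members without E7386 well 1 was -0.75, and without any other single well it stayed at or below that value, down to -0.93. Without DMSO well 3 the checkpoint median was -0.64 and the constitutive centromere median -0.57, the reverse of their order in the main fit.

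**Figure D2:**
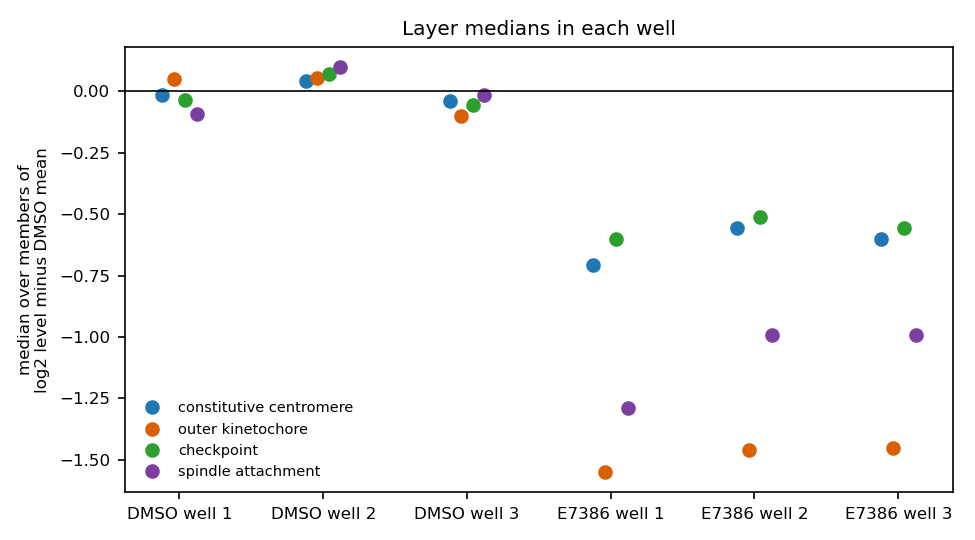
Each point is the median over the members of a layer, in a single well, of the log2 level minus that gene's mean in DMSO. DMSO wells lie within 0.10 of 0, and the E7386 wells lie between -1.55 and -1.45 in the outer kinetochore and between -0.60 and -0.51 in the checkpoint layer.

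Promoters were examined because many mitotic genes are known to carry a CHR (cell cycle genes homology region) close to the transcription start. This element is bound by the DREAM complex, which represses in resting cells, and by complexes of MuvB with B-MYB and FOXM1, which activate in G2. RefSeq promoters (GRCh38.p14), reaching from 250 bases before to 50 after the start, were matched to 37 of the 43 members by gene ID. Of these 37, 5 had several starts. KNL1, CENPL, CENPH, CENPM and MIS18A, called lower, and BUB3, not called, had no match, so none of them is counted or printed here. The letters TTTGAA and TTCGAA were searched on both strands, TTCGAA being its own reverse complement. They were present for 21 of 37 members, or 56.8%, and for 19.5% of the 27305 genes in the promoter table. Among members called lower 20 of 28 held them, and among those not called 1 of 8, which was CENPC. MIS12, the member called higher, held none. With the window limited to 50 bases before to 50 after the start, a choice made after seeing the data, the letters were found for 18 of 28 members called lower, 0 of 8 not called and 6.24% of all genes.

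The motif was found in 12 of 17 members at least 2-fold lower and in 8 of 11 with a smaller decrease. CENPE, with a difference of -2.13, held none. Members with the motif had a median difference of -1.23 and those without it -0.50. Over all rows with a promoter the medians were -0.030 for 2828 rows with it and -0.012 for 13210 rows without it, and 12.6% and 9.25% were called lower. The CCAAT box, the letters CCAAT on either strand, which the factor NF-Y is known to bind, was present for 17 of 28 members called lower, 5 of 8 not called and 39.7% of all genes. A match of letters shows neither binding nor a cause, and the lack of one says only that the letters are not in the window.

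The promoters below are the pairs with the largest decrease in the outer kinetochore and in the checkpoint layer among members with the motif, then MAD1L1 and ZWILCH, which were not called, and MIS12, added after its increase was seen. Each runs from 170 bases before to 30 after the start of the RefSeq table (GRCh38.p14), 5′ to 3′ on the gene's strand, and positions count the first base of the transcript as 1 and the base before it as -1. Capitals mark TTTGAA or its reverse complement TTCAAA, the palindrome TTCGAA, and the box CCAAT or its reverse complement ATTGG. For MIS12 the first of 2 listed starts is shown, and a further TTTGAA of SPC25 lies outside the stretch, at position -247.
SPC25 (chr2:168890401-168890600, minus strand): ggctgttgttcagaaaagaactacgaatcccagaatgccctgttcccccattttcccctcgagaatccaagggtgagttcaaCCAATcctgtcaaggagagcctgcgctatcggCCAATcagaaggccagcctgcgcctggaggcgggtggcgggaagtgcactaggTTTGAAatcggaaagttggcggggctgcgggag
NDC80 (chr18:2571387-2571586, plus strand): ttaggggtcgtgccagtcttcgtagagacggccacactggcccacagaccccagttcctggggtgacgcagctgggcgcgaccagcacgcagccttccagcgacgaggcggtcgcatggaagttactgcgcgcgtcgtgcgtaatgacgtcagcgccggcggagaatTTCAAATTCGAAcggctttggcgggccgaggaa
BUB1B (chr15:40160899-40161098, plus strand): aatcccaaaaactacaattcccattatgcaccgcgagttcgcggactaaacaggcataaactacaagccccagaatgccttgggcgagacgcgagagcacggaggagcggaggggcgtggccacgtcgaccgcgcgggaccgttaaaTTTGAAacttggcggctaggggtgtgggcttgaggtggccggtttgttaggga
BUB1 (chr2:110678034-110678233, minus strand): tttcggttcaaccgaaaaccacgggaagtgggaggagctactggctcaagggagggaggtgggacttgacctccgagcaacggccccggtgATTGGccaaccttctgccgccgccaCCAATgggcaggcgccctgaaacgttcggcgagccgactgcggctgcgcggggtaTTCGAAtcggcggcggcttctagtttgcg
MAD1L1 (chr7:2232916-2233115, minus strand): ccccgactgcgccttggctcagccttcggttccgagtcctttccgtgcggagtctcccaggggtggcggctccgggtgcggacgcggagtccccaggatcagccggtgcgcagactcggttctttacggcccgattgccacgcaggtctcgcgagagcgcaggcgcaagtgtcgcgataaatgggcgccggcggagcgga
ZWILCH (chr15:66505156-66505355, plus strand): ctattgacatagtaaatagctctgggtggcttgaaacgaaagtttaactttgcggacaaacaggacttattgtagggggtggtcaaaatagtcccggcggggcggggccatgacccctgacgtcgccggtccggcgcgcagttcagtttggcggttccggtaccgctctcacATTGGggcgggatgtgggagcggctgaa
MIS12 (chr17:5486204-5486403, plus strand): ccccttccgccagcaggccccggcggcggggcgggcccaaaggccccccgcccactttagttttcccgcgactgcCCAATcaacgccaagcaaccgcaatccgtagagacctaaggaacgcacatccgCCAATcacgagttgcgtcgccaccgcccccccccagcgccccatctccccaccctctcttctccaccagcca

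In these sequences the hexamer of SPC25 begins at position -3 from the start, that of BUB1B at -23 and that of BUB1 at 2. NDC80 has TTCAAA and TTCGAA in direct succession, beginning at -3 and at 4, with no base between them. The stretches of MAD1L1, ZWILCH and MIS12 hold no CHR-type hexamer, and those of ZWILCH and MIS12 hold CCAAT or its complement.

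**Figure D3:**
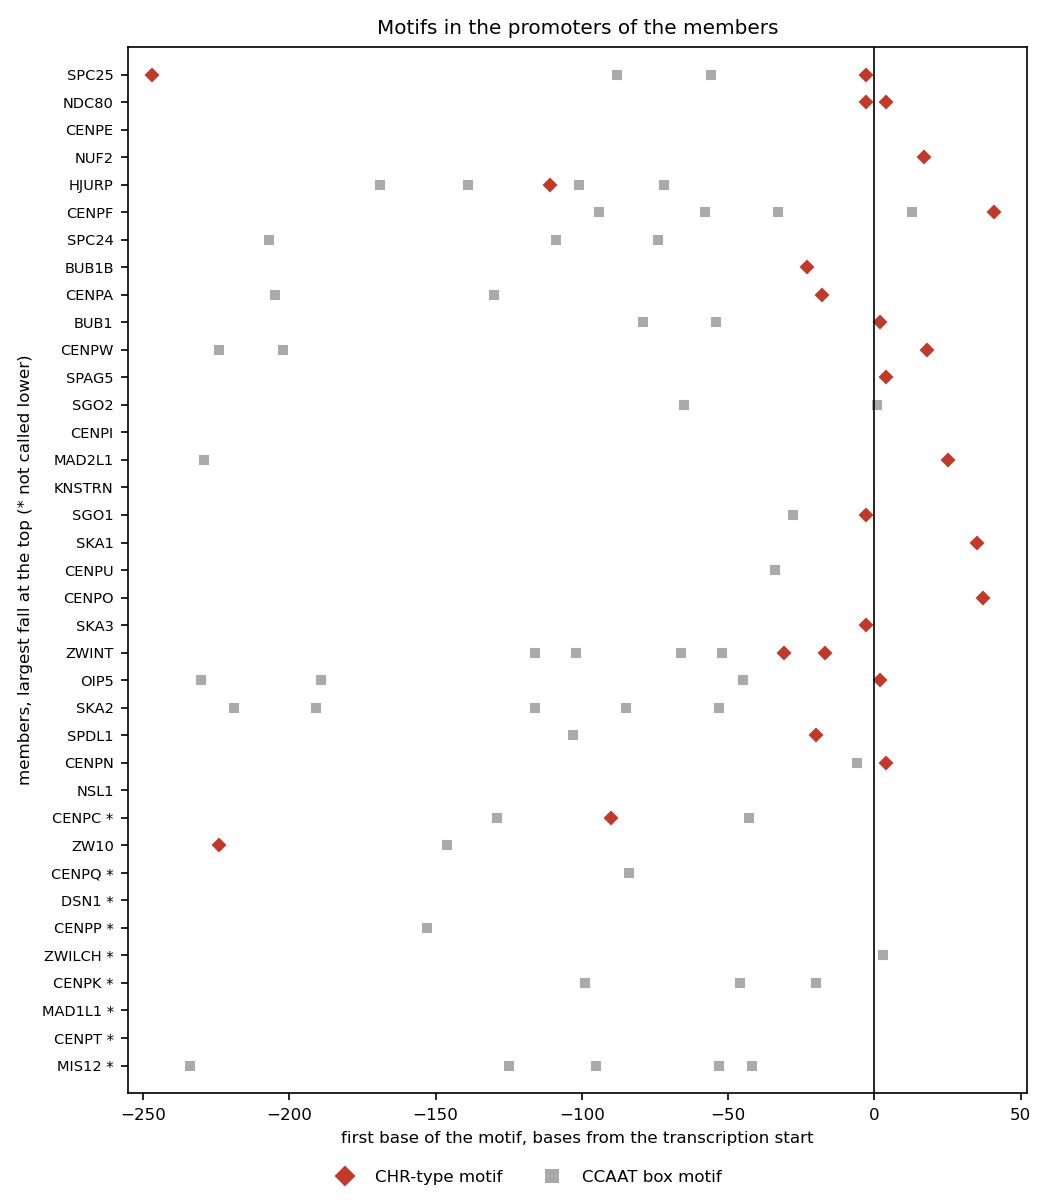
Each row is a member with a RefSeq promoter, ordered from the largest decrease at the top to the increase of MIS12 at the bottom, and stars mark members not called lower. Diamonds give the first base of each CHR-type motif and squares that of each CCAAT motif, in bases from the transcription start, and the starts of a gene with several are overlaid.

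Genes that deposit CENP-A fell. HJURP, the chaperone that carries CENP-A to the centromere, stood at 7.74, 7.78 and 7.70 in DMSO wells 1 to 3 and at 5.88, 6.02 and 5.97 in E7386 wells 1 to 3, on the log2 scale. Its groups lay far apart compared with their spread, and it fell by 1.79 ± 0.086 (standard error, SE, n = 3 wells per group throughout; limma adjusted p = 5.8e-05), a 3.45-fold difference. CENPA itself, the histone variant, read 7.50, 7.35 and 7.50 with DMSO and 5.80, 5.93 and 6.09 with E7386. The lowest DMSO value of CENPA was above the highest E7386 value, and the difference was -1.51 ± 0.10 (adjusted p = 1.7e-04). Both genes of the Mis18 complex, which licenses the deposition, fell by less. OIP5 fell by 0.68 ± 0.13 from 5.57 ± 0.23 (SD), and MIS18A fell by 0.42 ± 0.083 from 6.78 ± 0.030.

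The constitutive centromere-associated network (CCAN) was mixed, with 8 of 13 genes called lower, 5 not called and a median of -0.57. CENPW, a histone-fold protein that pairs with CENP-T, had values of 6.90, 7.22 and 6.78 in DMSO and 5.32, 5.62 and 5.56 with E7386. It fell by 1.46 ± 0.14 (adjusted p = 6.2e-04), with no overlap of the groups. Its partner CENPT, which anchors NDC80 complexes, was at 5.16, 5.09 and 5.12 in DMSO and 5.29, 5.09 and 5.15 with E7386. The CENPT groups overlapped, and the difference was 0.051 ± 0.090, with a 95% interval from -0.16 to 0.26 (adjusted p = 0.77); it turned to -0.012 when quantile normalization was repeated. The 2 genes of this pair thus had different calls, though the difference between them was not tested.

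Within the group of CENP-H, CENP-I, CENP-K and CENP-M, which bridges the inner proteins, the calls also differed. CENPI fell by 1.28 ± 0.10, from 8.28 ± 0.14 (SD) to 6.99 ± 0.062, a 2.43-fold difference. CENPH fell by 0.52 ± 0.097 and CENPM fell by 0.46 ± 0.11. The call of CENPM was lost without DMSO well 1 (adjusted p = 0.072), DMSO well 3 (0.057), E7386 well 2 (0.082) or E7386 well 3 (0.092). CENPK stood at 7.52, 7.72 and 7.36 in DMSO and at 7.35, 7.60 and 7.44 with E7386. These values overlapped almost entirely, and the difference was -0.065 ± 0.12, with an interval from -0.35 to 0.22.

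CENPN, which recognises the CENP-A nucleosome, fell by 0.60 ± 0.12, and CENPL, its partner, fell by 0.63 ± 0.099. CENPC, the protein that links CENP-A chromatin to the MIS12 complex, read 6.27, 6.73 and 6.82 in DMSO and 6.13, 6.15 and 5.83 with E7386. Its groups did not overlap but DMSO well 1 lay close to the E7386 wells, and the difference of -0.57 ± 0.16 was not called (adjusted p = 0.053). Without DMSO well 1 it was called, at an adjusted p of 0.014. It was not called without any other single well, with adjusted p from 0.091 to 0.16. Of the 8 alternatives that kept every well, 6 called it.

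Of the CENP-O, CENP-P, CENP-Q and CENP-U group, CENPU, a docking site for the kinase PLK1, fell by 0.93 ± 0.12 from 8.01 ± 0.20 (SD), and CENPO fell by 0.89 ± 0.088 from 6.94 ± 0.071. CENPQ was at 5.61, 5.85 and 5.52 in DMSO and 4.93, 5.41 and 5.42 with E7386. Its difference of -0.41 ± 0.16 was not called (adjusted p = 0.13), and E7386 well 1 lay well below the other treated wells. Without that well the CENPQ difference was -0.25. CENPP was at 6.79, 6.90 and 6.90 in DMSO and 6.66, 6.74 and 6.61 with E7386. The CENPP groups did not overlap, but the difference was small, at -0.19 ± 0.087 (adjusted p = 0.19).

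All 4 genes of the NDC80 complex, the main microtubule coupler of the kinetochore, fell, and their median of -2.10 corresponds to a 4.28-fold lower level. SPC25, which with SPC24 forms the end anchored in the kinetochore, stood at 6.41, 6.72 and 6.26 in DMSO and at 4.08, 4.49 and 4.24 with E7386. The difference of -2.20 ± 0.15 (adjusted p = 1.7e-04) was the 17th lowest of all 23786 rows. SPC24 fell by 1.54 ± 0.092, from 7.01 ± 0.095 (SD) to 5.47 ± 0.066. NDC80, a microtubule-binding subunit, read 7.25, 7.68 and 7.30 in DMSO and 5.05, 5.50 and 5.29 with E7386, a difference of -2.13 ± 0.16 (adjusted p = 2.1e-04). NUF2, which pairs with NDC80, was at 7.84, 7.83 and 7.63 in DMSO and 5.85, 5.69 and 5.58 with E7386, and it fell by 2.06 ± 0.11 (adjusted p = 6.4e-05). In each of the 4 genes the gap between the groups exceeded the range within either group.

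The MIS12 complex, which ties the NDC80 complex and KNL1 to the centromere, did not move as a unit. NSL1 fell by 0.60 ± 0.11, from 8.25 ± 0.11 (SD) to 7.65 ± 0.13. DSN1 stood at 6.55, 6.49 and 6.47 in DMSO and at 6.16, 6.31 and 6.24 with E7386. Its groups did not overlap, and the difference of -0.27 ± 0.086 was not called (adjusted p = 0.077). It was called, at an adjusted p of 0.020, when dim genes were left out, and at 0.035 and 0.036 with an intensity trend, without and with a robust prior. MIS12 was the member called higher, with 7.03, 6.93 and 6.79 in DMSO and 7.19, 7.42 and 7.45 with E7386. It rose by 0.44 ± 0.11 (adjusted p = 0.032), and its call was lost without DMSO well 2 (0.077), DMSO well 3 (0.094), E7386 well 2 (0.11) or E7386 well 3 (0.11).

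KNL1, the scaffold that recruits the BUB proteins, fell by 1.43 ± 0.14, from 7.31 ± 0.21 (SD) to 5.88 ± 0.18. ZWINT, its binding partner, fell by 0.74 ± 0.091. CENPF, a microtubule-binding protein of the fibrous corona, fell by 1.76 ± 0.086, from 8.77 ± 0.084 (SD) to 7.01 ± 0.0086, a 3.38-fold difference.

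**Figure D4:**
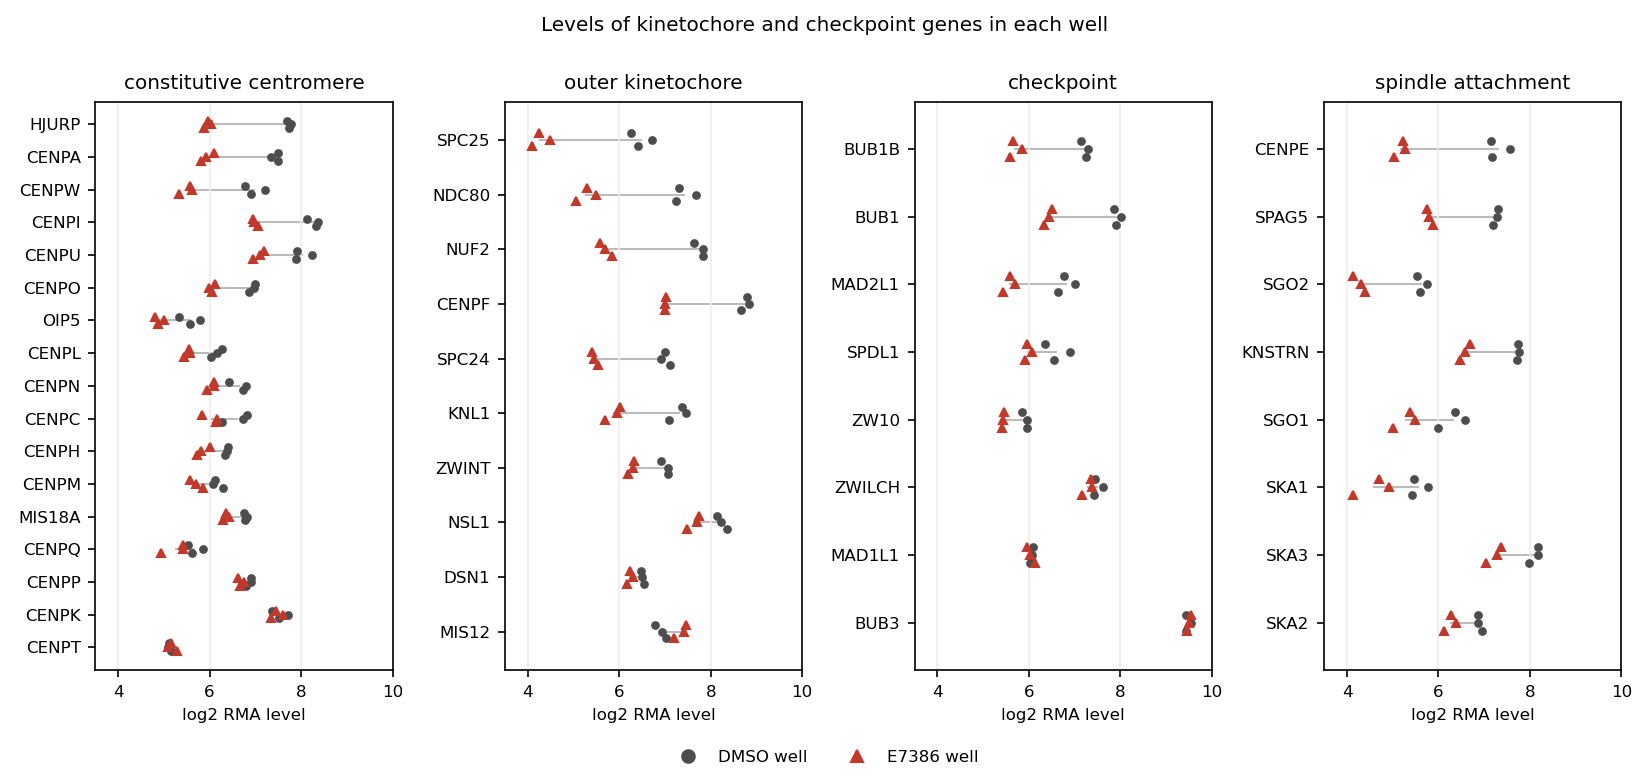
Log2 RMA levels of the 43 measured members are shown by layer, with a circle for each DMSO well, a triangle for each E7386 well and a grey line joining the group means. The groups stand apart for the NDC80 complex and CENPE and overlap for BUB3, MAD1L1, CENPK and CENPT.

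In the checkpoint layer BUB1, BUB1B and MAD2L1 fell while BUB3 and MAD1L1 showed overlapping groups. BUB1B, which encodes BUBR1, a subunit of the inhibitor of the anaphase-promoting complex, read 7.24, 7.29 and 7.14 in DMSO and 5.58, 5.84 and 5.66 with E7386. It fell by 1.53 ± 0.10 (adjusted p = 1.4e-04). BUB1, a kinase that marks the centromere for shugoshin, was at 7.91, 8.01 and 7.87 in DMSO and 6.33, 6.43 and 6.51 with E7386, and it fell by 1.51 ± 0.091 (adjusted p = 9.7e-05). MAD2L1, which encodes the protein that binds and holds CDC20, was at 6.64, 7.01 and 6.77 in DMSO and 5.44, 5.70 and 5.58 with E7386. The MAD2L1 groups were separated by more than either group's range, and the difference was -1.23 ± 0.12 (adjusted p = 7.4e-04).

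BUB3, the adaptor that brings BUB1 and BUBR1 to KNL1, was at 9.44, 9.54 and 9.44 in DMSO and 9.47, 9.50 and 9.54 with E7386. The values of both groups covered the same span, and the difference was 0.031 ± 0.083, with an interval from -0.16 to 0.22 (adjusted p = 0.85). MAD1L1, which encodes the platform that loads MAD2, was at 6.03, 6.07 and 6.08 in DMSO and 6.14, 6.03 and 5.95 with E7386. Its groups overlapped too, with a difference of -0.020 ± 0.088 and an interval from -0.23 to 0.19 (adjusted p = 0.92). Both intervals leave out a change of the size seen for BUB1, BUB1B or MAD2L1.

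The other checkpoint genes encode recruiters of the corona and had smaller differences. ZW10, of the complex that brings dynein and MAD1 to kinetochores, fell by 0.50 ± 0.083, from 5.93 ± 0.062 (SD) to 5.44 ± 0.019. ZWILCH, of the same complex, was at 7.42, 7.62 and 7.44 in DMSO and 7.17, 7.38 and 7.36 with E7386. Its groups were close but did not overlap, and the difference of -0.19 ± 0.10 was not called (adjusted p = 0.28). With 1 well left out the ZWILCH difference ran from -0.23 to -0.12, the latter without E7386 well 1, and it was also near that value without DMSO well 2. SPDL1, the dynein adaptor Spindly, fell by 0.62 ± 0.15, and its call was lost without DMSO well 1 (0.054), E7386 well 1 (0.079), E7386 well 2 (0.058) or E7386 well 3 (0.080).

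Every spindle attachment gene fell. CENPE, the kinesin that carries chromosomes to the spindle equator, stood at 7.17, 7.57 and 7.15 in DMSO and at 5.02, 5.26 and 5.23 with E7386. It fell by 2.13 ± 0.14, a 4.37-fold difference (adjusted p = 1.3e-04), with DMSO well 2 above the other wells. SPAG5, which encodes astrin, a stabiliser of correct attachments, was at 7.20, 7.27 and 7.30 in DMSO and 5.89, 5.80 and 5.76 with E7386, and it fell by 1.44 ± 0.086 (adjusted p = 9.0e-05). KNSTRN, the partner of astrin, fell by 1.15 ± 0.091, from 7.74 ± 0.020 (SD) to 6.58 ± 0.11.

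The shugoshins protect centromeric cohesion. SGO2 read 5.59, 5.76 and 5.52 in DMSO and 4.40, 4.30 and 4.13 with E7386, without overlap, and it fell by 1.34 ± 0.11 (adjusted p = 3.0e-04). SGO1 fell by 1.03 ± 0.19, from 6.31 ± 0.31 (SD) to 5.29 ± 0.25. The SKA complex, which keeps kinetochores on shortening microtubules, had an estimated decrease of less than 2-fold in each of its genes. The 95% intervals of SKA1, from -1.45 to -0.495, and of SKA3, from -1.15 to -0.61, included a 2-fold decrease. SKA1 fell by 0.97 ± 0.20, SKA3 fell by 0.88 ± 0.11 and SKA2 fell by 0.63 ± 0.099. SKA1 had the widest spread of any member, with 4.14, 4.91 and 4.70 in the E7386 wells, and its call was lost without DMSO well 2 (adjusted p = 0.055).

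**Figure D5:**
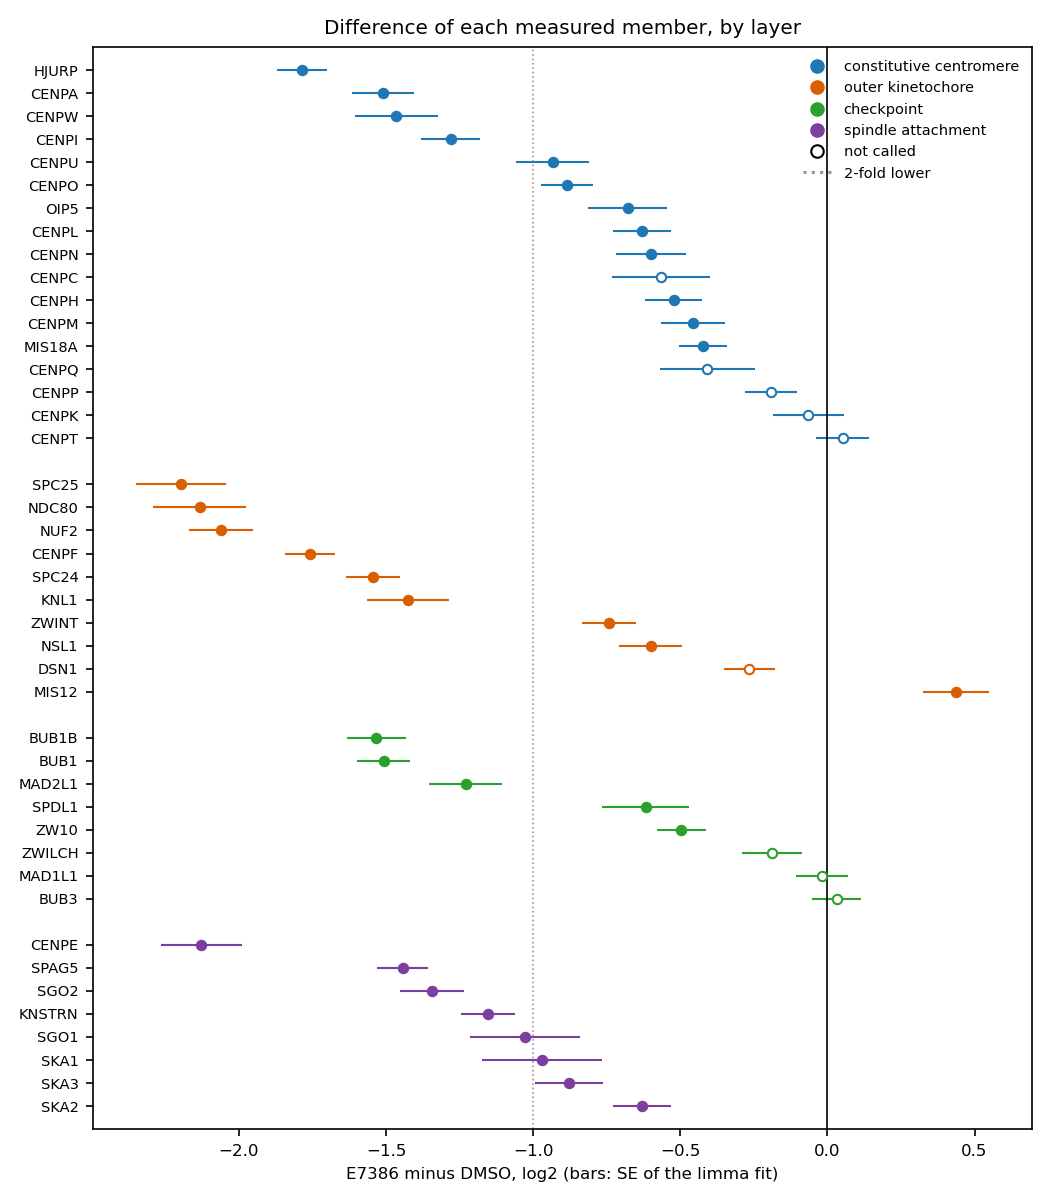
Points give the log2 difference, E7386 minus DMSO, of each measured member with its SE from the limma fit, grouped by layer, and open points were not called. The dotted line marks a 2-fold lower level, and MIS12 is the called member to the right of 0.

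Genes that work at the kinetochore but are not in the list also went mostly down. Of 20 such genes 18 were measured, 10 were called lower, 1 was called higher and 7 were not called, with a median of -0.43. Over all rows 8.69% were called lower and 9.93% higher. KIF2C, a microtubule-depolymerising kinesin of the centromere, fell by 1.60 ± 0.090, and TTK, the kinase MPS1 that starts checkpoint signalling, fell by 1.59 ± 0.13. ERCC6L, the DNA translocase PICH, fell by 1.49 ± 0.14 and KIF18A, a kinesin that dampens chromosome movement, fell by 1.45 ± 0.10. CLIP1, a microtubule plus-end protein also active in interphase, rose by 0.39 ± 0.079 (adjusted p = 0.014), and its adjusted p was 0.050, not called, without E7386 well 2.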

How the data were processed

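Expression was measured on arrays of biotin-labelled whole-transcript RNA from 6 wells. The deposited log2 values were made by the authors with RMA and affy 1.36.1, per the submitters' processing notes. This method corrects background, equalises the arrays' distributions by quantiles and summarises probes, so a change in total RNA per cell leaves no trace, differences of dim genes are compressed, and levels of different genes are not compared. Neither the probe set definition nor the build is given in the sources used here. All 23786 rows, 22458 of them with 1 symbol in the platform annotation, were used with no further normalization.

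A linear model with treatment as its only term was fitted with limma 3.58.1 in R 4.3.3, with a constant prior and Benjamini-Hochberg adjustment over all rows. It was tested on simulated data with known changes, drawn independently for each gene and well, so shared movement of members was not covered. The number of arrays limits the precision. The members, the layers, the other kinetochore genes and the motifs were chosen with earlier results of these data known. Values are listed by well for the 3 largest differences in each layer, members not called and members called higher. From the other kinetochore genes, the 4 largest called differences and those called against the list's median are named. Alternatives were repeated quantile normalization, a filter on dim genes, median centring, limma's intensity trend alone or with a robust prior, array weights, the replicate block, a 1.5-fold minimum, each well left out, another placing of the corona genes, and shorter promoter windows, of which that of 50 bases was added after seeing the data.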

Additional observations from a re-analysis of the deposited data

How the results depend on the processing

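The calls of 30 of the 34 called members held when each well was left out in turn, and 30 held under every alternative except the 1.5-fold minimum. With 1 well left out, 31 to 32 members were called lower and 0 to 1 higher, with a median between -0.93 and -0.75. The medians ranged from -0.67 to -0.52 in the constitutive centromere and from -0.64 to -0.47 in the checkpoint layer, and 0 to 1 outer kinetochore genes were called higher. Of the other kinetochore genes 9 were then called lower and 0 to 2 higher. NDE1, 1 of these genes, had an adjusted p of 0.043 in the main fit and lost its call whichever well was left out. Its call was also lost with median centring (0.051) and with the replicate block (0.070). With the 1.5-fold minimum 17 members were called lower and 0 higher. These were 6 genes of the outer kinetochore, 4 of the constitutive centromere, 3 of the checkpoint and 4 of spindle attachment, and 0 outer kinetochore genes were called higher. Of the other kinetochore genes 5 were then called lower and 0 higher. The replicate numbers were not taken to pair the wells. Over all rows, the deviations of same-numbered wells correlated at 0.051, 0.12 and -0.0077. Those of differently numbered wells correlated at -0.098 to 0.041. With the replicate block 33 members were called lower and 0 higher, so that 0 outer kinetochore genes were called higher, MIS12 having an adjusted p of 0.079. With the corona genes in the outer kinetochore its median was -1.08, and the checkpoint layer had 3 of 5 called lower and a median of -1.23. Repeated quantile normalization, median centring and array weights gave 34 members called lower, and leaving out dim genes or an intensity trend gave 35. In these fits 1 member was called higher. Except for the 1.5-fold minimum, the share of all rows called under each alternative is not given here. The counts of these alternatives are therefore not set against such a share. The cause of these changes was not tested.

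Uncalled genes with differences near 0 changed sign. CENPT was at -0.012 with repeated quantile normalization and ran from -0.0056 to 0.094 with 1 well left out. CENPK ran from -0.15 to 0.028 and MAD1L1 from -0.069 to 0.025. BUB3 kept its sign, from 0.014 to 0.065. Of the other kinetochore genes, CENPX was at -0.012 with array weights and ran from -0.13 to 0.083, and MAD2L1BP was at 0.019 with array weights and ran from -0.15 to 0.11. The TTTGAA or TTCGAA letters were found for 21 members in the full promoter window, 19 from 100 bases before the start and 18 from 50.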
